A study of Sus scrofa with 8 samples.

Results

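The genes described here encode PDZ and LIM domain (PDLIM) proteins, the related Z-disc protein LDB3, and the filamins, in heart muscle of Tibetan and Yorkshire pigs. Rows were taken from the table of all libraries by gene name. Of 9 names sought (PDLIM1, PDLIM2, PDLIM3, PDLIM4, PDLIM5, PDLIM7, LDB3, FLNA and FLNC), 6 were found among 18975 genes: PDLIM2, PDLIM3, PDLIM4, PDLIM5, LDB3 and FLNC. All 6 were among the 11913 genes that passed the filter on low values (at least 1 FPKM in at least 2 libraries), PDLIM2 only through YH1, YH2 and YL2. PDLIM1 carries no name in the table. It was found through its Ensembl ID in a table of gene names, so it is described separately and is left out of the counts. PDLIM7 and FLNA were not analysed here.

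Hearts came from male pigs aged 6 months in 4 groups: Tibetan pigs raised in the highlands (TH), Tibetan pigs raised in the lowlands (TL), Yorkshire pigs raised in the highlands (YH) and Yorkshire pigs raised in the lowlands (YL). Each group has 2 libraries, and each library is a pool of RNA from 4 pigs, so a library is already an average over animals. The chamber of the heart is not given in the labels. The 4 comparisons ask how the breeds differ at each altitude (TH against YH, TL against YL) and how each breed differs between altitudes (TH against TL, YH against YL).

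The Z-disc is the boundary between neighbouring sarcomeres, where alpha-actinin crosslinks the ends of the thin filaments. PDLIM proteins bind alpha-actinin through their PDZ domain and carry LIM domains that bind other proteins, including kinases. They fall into a group with a single LIM domain (PDLIM1, PDLIM2, PDLIM3 and PDLIM4) and a group with several LIM domains in their full-length forms (PDLIM5, PDLIM7 and LDB3). FLNC is the muscle form of filamin, a long actin crosslinker found at the Z-disc, at intercalated discs and at the cell membrane. Variants of LDB3 and FLNC are known causes of human cardiomyopathy.

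Reads on genes ranged from 15687000 to 26723000 per library, with a median of 19648000. TH1 had the highest FPKM sum over genes, 8559104 against 1563940 to 4017846 elsewhere, and the fewest genes at 1 FPKM or more, 10233 against 10661 to 12027. Without TH1, PDLIM3 was 2.50 higher in TH than in TL (2.21 with it) and 1.46 higher in TH than in YH (1.18 with it). YL2 stood apart from the other 7 libraries in its kidney genes. The summed FPKM of 10 kidney tubule genes was 4627 in YL2 and lay between 0.219 and 17.0 elsewhere, and UMOD, the uromodulin of the kidney tubule, was at 947 FPKM in YL2, whereas no other library exceeded 0.811 FPKM. The summed FPKM of 11 cardiomyocyte genes was 16947 in YL2, below the range of 26891 to 45005 in the other libraries. Fitted differences of the members against YL are therefore given with and without YL2. Counts and sums of the marker lists in YL include YL2. The summed FPKM of 12 atrial genes, led by MYL7, NPPB and NPPA, was 11790 and 8869 in the TH libraries and between 562 and 3084 elsewhere. Of the defining ventricular genes, MYL2 and MYH7 were not analysed here, and MYL3 was at 3282 to 9276 FPKM. The vascular smooth muscle list, led by DES (desmin, which cardiomyocytes also hold at the Z-disc), summed to 10169 and 6606 FPKM in TH and 1347 to 4153 FPKM elsewhere. Most of the TH sums was DES alone, at 9125 and 5761 FPKM. Of the 10 genes, 4 were higher and 2 lower in TH than in YH without overlap, beside 52.5% of all genes in either direction. Against TL, 3 were higher and 4 lower in TH, beside 48.5% of all genes. The ventricular list was at 3310 FPKM in YL2 and 5396 to 9356 FPKM elsewhere, the fibroblast list at 248 to 899 FPKM and the endothelial list at 129 to 225 FPKM over all libraries. The part of atrial, smooth muscle or kidney RNA in the values of the members was not tested. In such tissue libraries fewer cells of a type and less RNA per cell cannot be told apart.

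**Figure D1:**
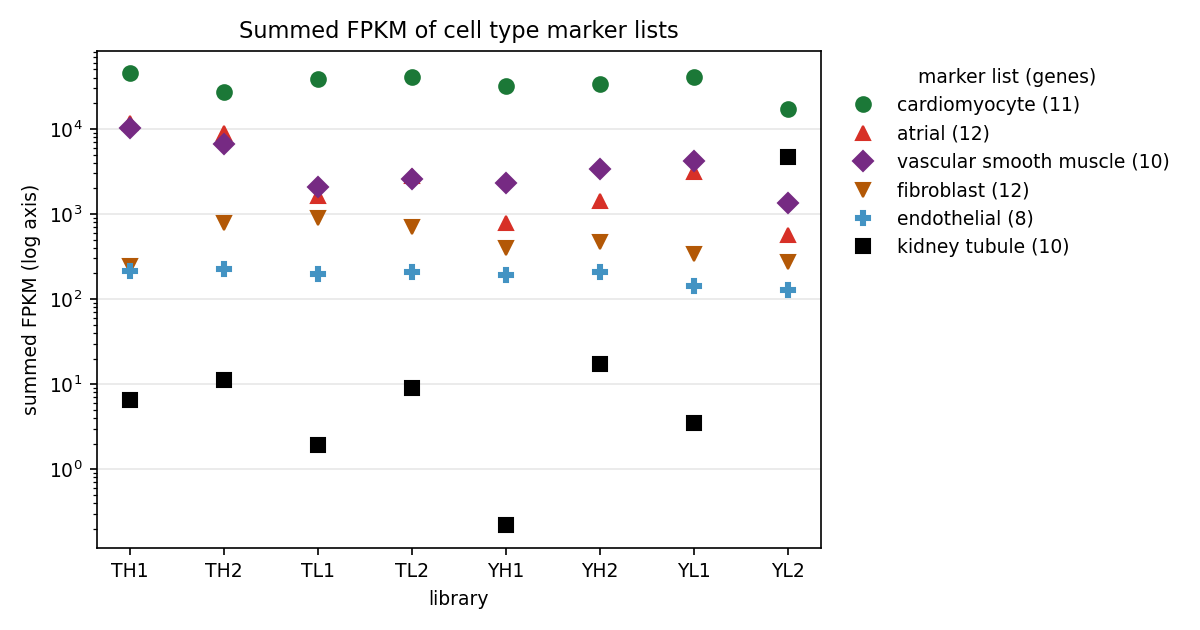
Summed FPKM (log axis) of 6 marker gene lists in each of the 8 libraries; the number of genes found in each list is in brackets. The kidney tubule list is at 4627 in YL2 and at 17.0 or below in the other libraries, and the atrial list is highest in TH1 and TH2.

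Levels are given in FPKM, which counts fragments relative to transcript length and to the mapped fragments of the library, a scale that allows levels of different genes to be set side by side. FLNC had the highest mean over the 8 libraries (324 FPKM), followed by LDB3 (255 FPKM), PDLIM3 (133 FPKM) and PDLIM5 (104 FPKM). All 4 lay in the top 5% of genes tested, at percentiles 98.0, 97.6, 96.0 and 95.1. PDLIM4 (6.57 FPKM, percentile 53.2) and PDLIM2 (2.04 FPKM, percentile 20.3) were far lower. The ranges over libraries of FLNC, LDB3, PDLIM3 and PDLIM5 overlapped each other, so their order was not the same in every library. PDLIM5 never fell below 45.7 FPKM and PDLIM4 never exceeded 12.2 FPKM, so these neighbours in the order did not overlap.

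**Figure D2:**
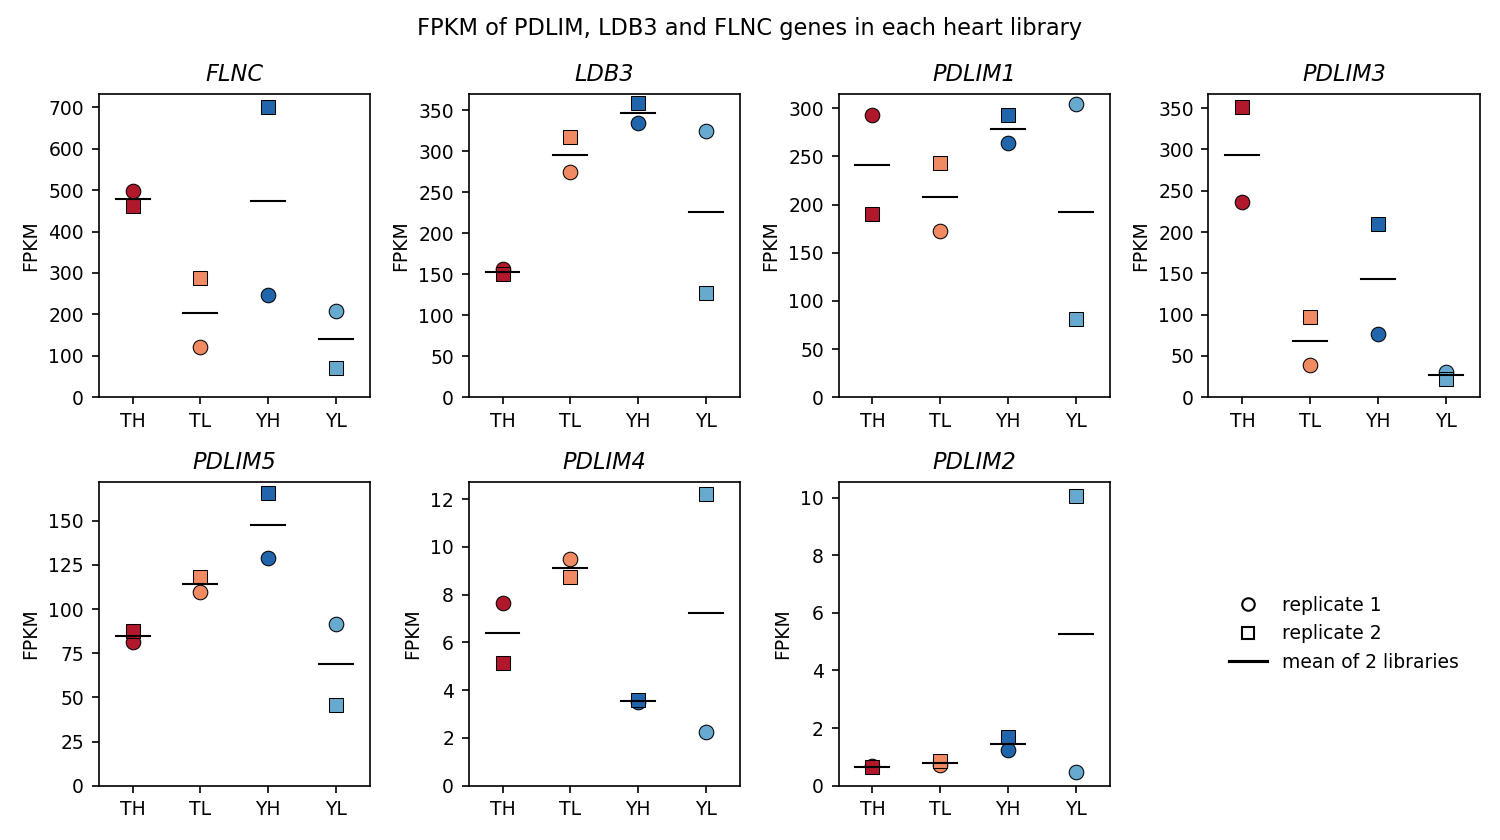
FPKM of each gene (linear axes from 0) by group, with a circle for replicate 1, a square for replicate 2 and a line at the mean of 2 libraries. PDLIM3 is highest in TH (236 and 351) and lowest in YL (30.7 and 21.9), LDB3 is low in both TH libraries and in YL2, and PDLIM2 and PDLIM4 are highest in YL2.

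PDLIM3 (ENSSSCG00000015796, Sscrofa10.2 chr15:53297821-53328139), also called actinin-associated LIM protein, is the member of the single-LIM group best known from skeletal and heart muscle. Its expression level was 236 and 351 FPKM in TH, 38.7 and 97.1 FPKM in TL, 76.6 and 210 FPKM in YH, and 30.7 and 21.9 FPKM in YL. The highland libraries of each breed lay above its lowland libraries, and at each altitude the Tibetan libraries lay above the Yorkshire libraries, without overlap in any of the 4 comparisons. The 16.1-fold range between TH2 and YL2 rested on 9944 and 1031 reads, and the fewest reads were 809, in YL1.

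The mean of PDLIM3 in TH (294 ± 81.4 FPKM, SD, n = 2) was 4.33 times that in TL (67.9 ± 41.3 FPKM). In YH (143 ± 94.0 FPKM) it was 5.45 times that in YL (26.2 ± 6.22 FPKM). On the scale of log2(FPKM + 1), the fitted differences were 2.21 (SE 0.59, 95% interval 0.80 to 3.62) between TH and TL and 2.25 (SE 0.59, 0.84 to 3.66) between YH and YL. Neither passed the criterion, with limma p-values adjusted over all genes of 0.268 and 0.688 (unadjusted 0.0078 and 0.00719). With each library left out in turn, the TH against TL difference ranged from 1.56 (without TL1) to 2.86 (without TL2) and the YH against YL difference from 1.53 (without YH2) to 2.97 (without YH1). The altitude difference of the 2 breeds differed by -0.04 on the log2 scale, with an interval of -2.04 to 1.96 that leaves room for differences in either direction. Without YL2 this value was 0.20.

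Between breeds the PDLIM3 differences were smaller, at 1.18 (SE 0.59, adjusted p = 0.381) for TH against YH and 1.21 (SE 0.59, adjusted p = 0.626) for TL against YL. YH2, at 210 FPKM, came close to TH1 at 236 FPKM, and the TH against YH difference was 0.46 without YH1 and 1.90 without YH2. It was 0.19 where each library was scaled to the same FPKM sum, a scaling that puts the median of all genes at -0.50 in that comparison (-0.03 otherwise). Without YL2, PDLIM3 was 2.01 higher in YH than in YL and 0.98 higher in TL than in YL on the log2 scale. The TL against YL difference was 0.56 without TL2 and 1.87 without TL1. The summed FPKM of the atrial list moved with PDLIM3 in TH against YH, where 8 of its 12 genes were higher and 2 lower without overlap, and in TH against TL, where 5 were higher and 3 lower. Of all genes, 52.5% did not overlap in TH against YH and 48.5% in TH against TL, in either direction. The skeletal muscle list was also highest in TH, at 31310 and 22308 FPKM beside 7063 to 18259 FPKM elsewhere. Nearly all of that sum was ACTA1, an actin that heart muscle also makes (30005 and 21387 FPKM in TH), whereas 2 of the 7 genes were higher and 2 lower without overlap both in TH against YH and in TH against TL. Its myosin genes MYH1 and MYH2 were at 0.0374 FPKM or below in every library. In YH against YL the atrial sums overlapped (789 and 1413 in YH, 3084 and 562 in YL), and 1 of the 12 genes was higher and 4 were lower without overlap. In the same comparison 10 of 12 fibroblast, 6 of 8 endothelial, 7 of 10 leukocyte and 4 of 6 red blood cell genes lay higher in YH without overlap and 0 of each list lay lower, beside 36.3% of all genes apart in either direction. The sums of the red blood cell and endothelial lists lay apart in the direction of PDLIM3 in each of the 4 comparisons. By gene the endothelial list was divided in TH against YH, where 2 of its 8 genes were higher and 4 lower without overlap. In TH against TL 2 were higher and 0 lower, and in TL against YL 5 were higher and 0 lower. The red blood cell list, led by the haemoglobin genes HBB and HBA, was at 3115 and 1635 FPKM in TH, 1240 and 1409 FPKM in TL, 1068 and 1033 FPKM in YH and 635 and 533 FPKM in YL. The endothelial list was at 214 and 225 FPKM in TH, 196 and 207 FPKM in TL, 190 and 210 FPKM in YH and 142 and 129 FPKM in YL. The part of these cells in the PDLIM3 values was not tested.

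FLNC (ENSSSCG00000016578, Sscrofa10.2 chr18:20855083-20884021) was at 497 and 462 FPKM in TH, 120 and 287 FPKM in TL, 248 and 702 FPKM in YH, and 208 and 70.6 FPKM in YL. As for PDLIM3, both highland groups lay above the lowland group of their breed. In contrast to PDLIM3, the breeds overlapped at both altitudes. The YH libraries differed by more than the TH libraries, with means of 475 ± 321 FPKM in YH and 480 ± 25.2 FPKM in TH (SD, n = 2).

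The FLNC difference on the log2 scale was 1.36 (SE 0.71, interval -0.32 to 3.05, adjusted p = 0.515) for TH against TL and 1.77 (SE 0.71, interval 0.09 to 3.46, adjusted p = 0.784) for YH against YL. The former was 0.74 without TL1 and 1.99 without TL2. The latter was 1.02 without YH2, 2.52 without YH1, 1.0 without YL2 and 2.55 without YL1. The TL against YL difference of 0.61 was -0.16 without YL2, 1.38 without YL1, -0.02 without TL2 and 1.24 without TL1. The TH against YH difference of 0.20 (interval -1.48 to 1.88) changed sign with the scaling, to -0.78 at equal FPKM sums and to -0.02 on the reads scaled by the authors, so no direction can be given for it (the median of all genes was -0.50 and 0.01 in these settings). FLNC and PDLIM3 were the pair of members that varied most alike over the 8 libraries, with a Pearson r of 0.91 that describes libraries sharing breed, altitude and depth.

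LDB3 (ENSSSCG00000010359, Sscrofa10.2 chr14:94915442-94974092), known in human as ZASP or Cypher, binds alpha-actinin at the Z-disc and is needed to keep it intact under load. It was at 156 and 150 FPKM in TH, 275 and 317 FPKM in TL, 335 and 359 FPKM in YH, and 325 and 127 FPKM in YL. Both TH libraries and YL2 lay at 127 to 156 FPKM, and the other 5 libraries lay at 275 to 359 FPKM. In the TH libraries LDB3 was thus low, whereas PDLIM3 and FLNC were high.

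LDB3 was lower in TH than in YH by 1.17 on the log2 scale (SE 0.43, interval -2.19 to -0.15), with a limma adjusted p of 0.261 (unadjusted p = 0.0298) that did not pass. The mean of 153 ± 4.32 FPKM in TH was 0.442 times that of 347 ± 17.1 FPKM in YH. The fitted difference was -2.13 at equal FPKM sums, and -1.22 to -1.12 with each library left out in turn. Against TL, TH was lower by 0.94 (SE 0.43, adjusted p = 0.471). Of the 11 genes of the cardiomyocyte list, 1 was higher and 5 were lower in TH than in YH without overlap (52.5% of all genes did not overlap, in either direction), and the sums of the list in TH (45005 and 26891 FPKM) surrounded those in YH (32127 and 34180 FPKM). In TH against TL, 0 of the 11 were higher and 7 were lower without overlap (48.5% of all genes did not), beside the lower LDB3 and PDLIM5, and the sums in TL (38300 and 41282 FPKM) lay between those in TH. Differences involving YL rested on YL2. The YH against YL difference was 0.77 with it and 0.09 without it, and the TL against YL difference was 0.54 with it and -0.14 without it.

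PDLIM5 (ENSSSCG00000009192, Sscrofa10.2 chr8:134331168-134558588), or Enigma homolog, tethers protein kinases to the Z-disc and is made in the heart as long and short forms, which a value per gene does not separate. It was at 81.7 and 87.3 FPKM in TH, 110 and 118 FPKM in TL, 129 and 166 FPKM in YH, and 91.6 and 45.7 FPKM in YL. YH lay above every other group, and TL lay above TH and YL. YH was higher than YL by 1.16 on the log2 scale (SE 0.35, interval 0.34 to 1.99, unadjusted p = 0.0126), but the adjusted p was 0.753, and the difference was 0.67 without YL2. TL was 0.81 above YL (SE 0.35, limma adjusted p = 0.565), which was 0.31 without YL2 and 1.30 without YL1. TH was lower than YH by 0.78 (SE 0.35, adjusted p = 0.327) and lower than TL by 0.43 (SE 0.35, adjusted p = 0.692; -1.01 at equal FPKM sums). The TH against YH difference was -1.71 at equal FPKM sums and -0.53 on the reads scaled by the authors. The scaled reads behind 1 FPKM of PDLIM5, relative to the median gene of the library, ranged from 0.836 in YH2 to 1.13 in TH1, a 1.35-fold range at percentile 71.4 of the 6931 genes with at least 100 scaled reads in every library. For FLNC the same quantity ranged from 0.876 in TH1 to 1.23 in YH2, 1.41-fold at percentile 78.1. The range was 1.225-fold for LDB3 and 1.06-fold for PDLIM3.

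PDLIM5 and LDB3 were alike in a further respect. Both were lower in TH than in TL, and higher in YH than in YL, in every library. The altitude difference in Tibetan pigs minus that in Yorkshire pigs was -1.59 for PDLIM5 (SE 0.49, interval -2.75 to -0.43) and -1.71 for LDB3 (SE 0.61, interval -3.15 to -0.27). The limma adjusted p-values of this interaction were 0.36 and 0.395 (unadjusted 0.0146 and 0.0263). Without YL2 the interaction was -1.10 for PDLIM5 and -1.03 for LDB3, with adjusted p-values of 0.306 and 0.315. Over the 8 libraries the Pearson r of PDLIM5 with LDB3 was 0.85, whereas that of PDLIM3 with LDB3 was -0.10.

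PDLIM4 (ENSSSCG00000014274, Sscrofa10.2 chr2:139959238-139973948), also named RIL, binds alpha-actinin and actin stress fibres in many tissues. It was at 7.67 and 5.15 FPKM in TH, 9.49 and 8.73 FPKM in TL, 3.49 and 3.57 FPKM in YH, and 2.24 and 12.2 FPKM in YL. The Tibetan libraries were above the highland Yorkshire libraries and above YL1, and YL2 was the highest of the 8 libraries. The difference between TH and YH was 0.69 (SE 0.59, adjusted p = 0.587), and it was -0.08 at equal FPKM sums, still above the median of -0.50 that all genes have there. Without YL2 the TL against YL difference went from 0.63 to 1.64 and the YH against YL difference from -0.53 to 0.48.

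PDLIM2 (ENSSSCG00000009625, Sscrofa10.2 chr14:7316098-7328155), or mystique, is best known from immune and epithelial cells, where it serves in protein ubiquitination. It was at 0.698 and 0.632 FPKM in TH, 0.719 and 0.856 FPKM in TL, 1.23 and 1.68 FPKM in YH, and 0.458 and 10.1 FPKM in YL. The count of reads was 9 in YL1, 344 in YL2 and at most 51 in the other libraries. YL2 was 21.9 times as high as YL1 for PDLIM2 and 5.44 times for PDLIM4. The same quotient was 0.713 for PDLIM3, 0.50 for PDLIM5, 0.389 for LDB3 and 0.339 for FLNC, and 0.413 for the summed cardiomyocyte list. Apart from YL2, no PDLIM2 value exceeded 1.68 FPKM, and the TL against YL difference of -1.17 became 0.29 and the YH against YL difference of -0.72 became 0.75 without YL2. Without YL1, with YL2 as the lone YL library, PDLIM2 passed the criterion in both comparisons (limma adjusted p = 0.00229 and 0.00481), as did 305 genes in each. PDLIM2 passed the filter on low values partly through YL2 itself, so these calls are given as a description and support nothing.

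PDLIM1 (ENSSSCG00000010493, Sscrofa10.2 chr14:116376966-116425960), or CLP36, is a single-LIM protein of heart muscle and of stress fibres in other cells. It was at 293 and 190 FPKM in TH, 173 and 243 FPKM in TL, 264 and 293 FPKM in YH, and 304 and 81.1 FPKM in YL. The groups overlapped in all 4 comparisons. The largest fitted difference was 0.82 on the log2 scale, in YH against YL (interval -0.60 to 2.23, adjusted p = 0.787), and it was -0.13 without YL2, the library with the lowest PDLIM1 value.

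**Figure D3:**
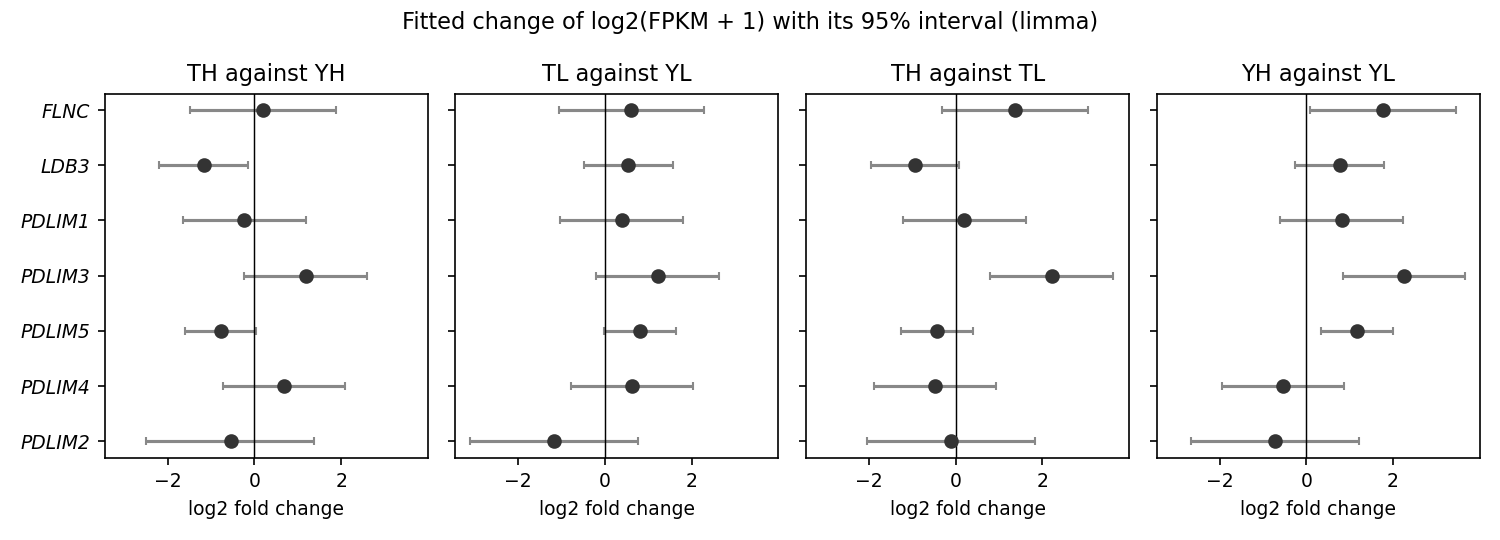
Fitted differences of log2(FPKM + 1) from limma (points) with 95% intervals (bars) for each gene in the 4 comparisons; positive values are higher in the group named first. The intervals of PDLIM3 in both altitude comparisons, of PDLIM5 and FLNC in YH against YL, and of LDB3 in TH against YH do not reach 0, and no gene passed the criterion on adjusted p-values.

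In TH against YH, PDLIM3 and PDLIM4 lay higher in TH, and LDB3, PDLIM5 and PDLIM2 lay higher in YH, while FLNC overlapped. Thus 5 of 6 members did not overlap between the groups, beside 52.5% of all genes tested. With the criterion of an adjusted p below 0.01 and a difference above 1 in log2, limma called 0 of 6 members and 0.0336% of all genes. At an unadjusted p under 0.05 there was 1 member, LDB3, and 16.2% of all genes. The median difference of the 6 members was -0.18, beside -0.03 over all genes. With either YL library left out, which changes the estimate of spread that all groups share, PDLIM4, PDLIM5 and LDB3 were under an unadjusted p of 0.05, beside 22.7% of all genes. PDLIM2 was too, but outside YL2 it reached the filter in YH alone, the group where it is high, so its place in this count and in the count without overlap is no support. The leukocyte list was lower in TH together with PDLIM2 and PDLIM5, with 0 of 10 genes higher and 6 lower without overlap and sums of 43.3 and 34.6 FPKM in TH against 62.8 and 81.1 FPKM in YH, and the part of these cells in the values was not tested.

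In TL against YL, PDLIM3 and PDLIM5 lay higher in TL, and the other 4 members overlapped. With them, 10 of 12 fibroblast, 5 of 8 endothelial, 6 of 10 vascular smooth muscle and 4 of 6 red blood cell genes lay higher in TL without overlap and 0 of each list lay lower, and their part in the values was not tested. The fibroblast sums were 899 and 710 FPKM in TL against 342 and 275 FPKM in YL, and the vascular smooth muscle sums overlapped. The YL libraries lay on either side of TL for PDLIM2, PDLIM4 and LDB3, and YL1 lay within the range of TL for FLNC. PDLIM2 was below 1 FPKM in TL and in YL1, so its place in counts against YL1 is no support. The share without overlap was 2 of 6 members, beside 41.5% of all genes. None of the 6 was called by limma (0.00839% of all genes), and none was under an unadjusted p of 0.05 (8.94% of all genes). The median difference was 0.62 for the members and 0.02 for all genes, and 0.30 and 0.05 without YL2. With YL1 as the lone YL library, 5 of 6 members and 81.3% of all genes did not overlap, PDLIM4 alone was under an unadjusted p of 0.05 (9.72% of all genes), and PDLIM2, PDLIM3, PDLIM4 and PDLIM5 lay above YL1 in TL and LDB3 below it. With YL2 as the lone YL library, PDLIM5 and LDB3 were under that p, and PDLIM2 with the limit of its filter, beside 25.5% of all genes. At equal FPKM sums the differences were 0.47 for PDLIM5, 0.28 for FLNC, 0.20 for LDB3 and 0.07 for PDLIM4, where the median of all genes was -0.23.

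In TH against TL all 6 members were without overlap, beside 48.5% of all genes: PDLIM3 and FLNC were higher in TH, and LDB3, PDLIM5, PDLIM4 and PDLIM2 were higher in TL. PDLIM2 was below 1 FPKM in all of these libraries, on 13 to 24 reads, with a fitted difference of -0.10 (SE 0.82). Its place in this count is therefore no support. The interval of PDLIM3 excluded 0, and those of the other 5 members held it. By limma 0 of 6 were called (0.0504% of all genes), and 1, PDLIM3, was under an unadjusted p of 0.05 (11.3% of all genes). With either YL library left out, LDB3 joined it, 2 members beside 17.1% of all genes. The median was -0.26 for the members and -0.02 for all genes. At equal FPKM sums, where the median of all genes was -0.27, the difference was 1.54 for PDLIM3 (2.21 otherwise) and 0.72 for FLNC (1.36 otherwise). It was -1.55 for LDB3 (-0.94 otherwise), -1.01 for PDLIM5 (-0.43 otherwise) and -0.75 for PDLIM4 (-0.47 otherwise).

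In YH against YL, PDLIM3, FLNC, PDLIM5 and LDB3 were higher in YH without overlap, and PDLIM4 and PDLIM2 overlapped. These were 4 of 6 members, beside 36.3% of all genes. By limma 0 of 6 members and 0 of the 11913 genes (0%) were called, and PDLIM3, PDLIM5 and FLNC were under an unadjusted p of 0.05, as were 5.97% of all genes. The median difference was 0.97 for the members and 0.03 for all genes, and 0.71 and 0.06 without YL2. With YL1 as the lone YL library, 6 of 6 members and 75% of all genes did not overlap, and PDLIM3 and PDLIM5 were under an unadjusted p of 0.05, beside 5.45% of all genes. PDLIM2 was too, but through the filter on YH named above, so its place in this count and in the count without overlap is no support. With YL2 as the lone YL library all 6 members were, PDLIM2 with the limit of its filter, beside 25.3% of all genes. For the interaction, 0 of 6 members were called (0.0336% of all genes) and 2, PDLIM5 and LDB3, were under an unadjusted p of 0.05 (10.9% of all genes). Without YL2, PDLIM4 joined them, and PDLIM2 with the same limit, beside 12.8% of all genes. The comparisons share libraries, so their counts are not independent of each other.

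Ratios within a library do not depend on its scaling. The quotient of PDLIM3 to LDB3 was 1.51 and 2.34 in the TH libraries, 0.141 and 0.306 in the TL libraries, 0.229 and 0.584 in the YH libraries, and 0.0943 and 0.173 in the YL libraries. PDLIM3 exceeded LDB3 in both TH libraries and in no other. The quotient of FLNC to LDB3 was 3.18 and 3.08 in the TH libraries, 0.437 and 0.906 in the TL libraries, 0.740 and 1.96 in the YH libraries, and 0.641 and 0.558 in the YL libraries. It was above 3 in TH, and YH2 was the only other library in which FLNC exceeded LDB3. PDLIM5 to LDB3 moved far less, from 0.282 in YL1 to 0.582 in TH2.

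**Figure D4:**
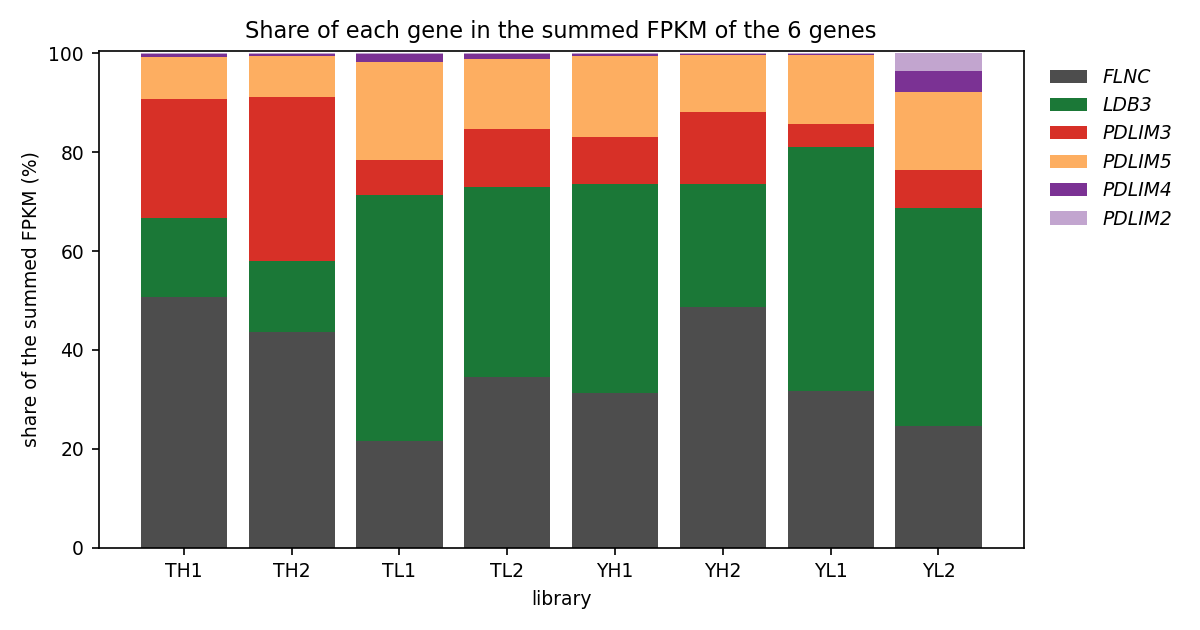
Share of each gene (%) in the summed FPKM of the 6 members in each library. FLNC and PDLIM3 make up most of the sum in TH1 and TH2, LDB3 holds 14.2% to 15.9% there and 24.9% to 49.6% elsewhere, and PDLIM2 and PDLIM4 are visible in YL2 at 3.5% and 4.26%.

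As shares of the summed FPKM of the 6 members, FLNC held 50.8% and 43.7% and PDLIM3 24.1% and 33.2% in TH. LDB3 held 15.9% and 14.2% there, but 49.6% and 38.2% of the sum in TL, 42.2% and 24.9% of it in YH, and 49.4% and 44.1% in YL. The sum itself was 980 and 1057 FPKM in TH, 553 and 830 FPKM in TL, 793 and 1442 FPKM in YH, and 658 and 287 FPKM in YL.

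The alpha-actinins are the direct partners of these proteins at the Z-disc. ACTN2, the muscle alpha-actinin, was at 737 and 699 FPKM in TH, 610 and 896 FPKM in TL, 754 and 848 FPKM in YH, and 761 and 340 FPKM in YL. Set over ACTN2 of the same library, PDLIM3 was 0.321 and 0.502 in the TH libraries, 0.0634 and 0.108 in the TL libraries, 0.102 and 0.247 in the YH libraries, and 0.0403 and 0.0642 in the YL libraries. On this scale the highland and lowland libraries of each breed did not overlap, nor did TH and YH, whereas YL2 lay just above TL1. LDB3 over ACTN2 was 0.212 and 0.215 in TH and 0.354 to 0.450 in the other 6 libraries, YL2 included at 0.372. FLNC over ACTN2 was 0.675 and 0.661 in TH and 0.828 in YH2, and 0.197 to 0.329 in the other 5 libraries.

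ACTN1, the alpha-actinin of non-muscle cells and focal adhesions, was at 24.3 and 27.3 FPKM in TH, 10.8 and 10.1 FPKM in TL, 9.49 and 12.6 FPKM in YH, and 7.44 and 7.38 FPKM in YL. Both TH libraries lay above the other 6. Its difference was 1.17 (SE 0.21, adjusted p = 0.0924) against YH and 1.22 (SE 0.21, adjusted p = 0.16) against TL, neither of which passed.

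Further partners were taken as lists of Z-disc proteins, proteins of the costamere and focal adhesion (the sites that join the Z-disc to the cell membrane) and other filamin and LIM genes, 68 rows for 65 genes tested with the alpha-actinins. None of the 68 rows was called by limma in any of the 4 comparisons. At an unadjusted p under 0.05, 6 were higher and 5 lower in TH against YH, 7 higher and 0 lower in TL against YL, 6 higher and 4 lower in TH against TL, and 9 higher and 0 lower in YH against YL. These were 16.2%, 10.3%, 14.7% and 13.2% of the partners, beside 16.2%, 8.94%, 11.3% and 5.97% of all genes. The median difference was -0.02, 0.31, 0.06 and 0.48 in the same order. The excess of higher partners against YL rested on YL2. Without it 5 partners were higher and 5 lower in TL against YL, and 2 higher and 2 lower in YH against YL, with medians of -0.04 and 0.09, where 9.72% and 5.45% of all genes were under that p in either direction. In the comparisons without YL, where only the shared spread changes, it gave 9 higher and 10 lower in TH against YH and 14 higher and 6 lower in TH against TL, beside 22.7% and 17.1% of all genes.

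Among Z-disc proteins, FHL2, a LIM protein of heart muscle, was at 29.0 and 42.1 FPKM in TH and 155 and 126 FPKM in TL, with 35.4 to 60.8 FPKM in the Yorkshire libraries. It was lower in TH than in TL by 1.96 on the log2 scale (SE 0.32, adjusted p = 0.145) and higher in TL than in YL by 1.56 (SE 0.32, adjusted p = 0.253; 1.18 without YL2). ANKRD2, a stretch-responsive ankyrin repeat protein, was at 68.2 and 73.7 FPKM in TH, 1.5 and 6.12 FPKM in TL, 9.39 and 64.6 FPKM in YH, and 10.5 and 1.54 FPKM in YL, and the TH against TL difference was 4.09 (SE 1.03, adjusted p = 0.255). YH2 was the highest Yorkshire library for ANKRD2, as it was for PDLIM3 and FLNC. MYPN, the Z-disc protein myopalladin, has 2 rows in the table. The row with the higher level (ENSSSCG00000029311) was at 8.66 and 12.7 FPKM in TH and 31.7 and 42.0 FPKM in YH, a difference of -1.70 (SE 0.48, adjusted p = 0.188), the direction of LDB3. CMYA5, or myospryn, was lower in TH than in TL by 1.45 (SE 0.29, adjusted p = 0.197).

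Among genes of the costamere and focal adhesion, ZYX, the LIM protein zyxin, was at 46.1 and 48.0 FPKM in TL and 26.6 and 18.7 FPKM in YL (difference 1.04, SE 0.23, adjusted p = 0.269, and 0.80 without YL2). TLN2, the striated muscle talin, has 2 rows that did not move alike. The lower row (ENSSSCG00000004571) was at 1.34 and 3.02 FPKM in TH and 7.30 and 4.69 FPKM in YH (difference -1.16, SE 0.32, adjusted p = 0.185), whereas the higher row (ENSSSCG00000024088) was at 52.5 and 21.7 FPKM in TH and 28.9 and 24.1 FPKM in YH, which overlap, so no direction is given for TLN2. Of the other filamin and LIM genes, CSRP2, a cysteine- and glycine-rich LIM protein of smooth muscle, was at 16.1 and 15.9 FPKM in TH and 3.66 and 5.86 FPKM in YH (difference 1.59, SE 0.59, adjusted p = 0.263), and was highest in YL2 at 22.4 FPKM. LMCD1, a LIM protein that binds GATA factors, was at 31.5 and 34.4 FPKM in YH and 12.5 and 6.67 FPKM in YL (difference 1.74, SE 0.43, adjusted p = 0.647, and 1.33 without YL2).

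The genes whose FPKM varied most like each member were sought among 4161 genes with a mean of at least 10 FPKM, by Pearson r over the 8 libraries. For PDLIM3 these were SERPINB2 (r = 0.965), NRBP1 (0.961) and ARPC1B (0.947), and SERPINB2 was at 291 and 371 FPKM in TH, 79.4 and 139 FPKM in TL, 66.9 and 220 FPKM in YH, and 54.7 and 27.3 FPKM in YL. For FLNC the closest named gene was DNAJA4 (0.972), a DnaJ chaperone that was highest in YH2 (163 FPKM). For LDB3 the closest named gene was IMMT (0.979), a protein of the mitochondrial inner membrane, at 82.7 and 82.7 FPKM in TH, 84.1 FPKM in YL2 and 121 to 138 FPKM in the other 5 libraries. For PDLIM5 it was VDAC2 (0.967), a channel of the mitochondrial outer membrane. For PDLIM2 it was APN (0.993), at 107 FPKM in YL2 and no more than 1.71 FPKM in the rest, and YL2 is by far the highest library of both genes. For PDLIM4 it was DVL3 (0.936), and for PDLIM1 PTCD3 (0.977). Such correlations over libraries that share group and depth are descriptions.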

How the data were processed

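RNA of pig heart was measured in 8 libraries, 2 for each of 4 groups, each a pool of 4 pigs. Per the labels and methods, the authors used TopHat2 2.0.9 (Bowtie 0.12.5) for alignment to Sscrofa10.2 and Cufflinks for the deposited FPKM. The deposited table also holds a signal per gene, reads scaled by the authors with 1 factor per library (DESeq 1.10.1 is named in the submitters' processing notes). Dividing it by the step of its library put 99.7% to 99.9% of the values below 20 steps within 0.01 of a whole number, which gave the reads per library (15687000 to 26723000). The 8 columns of group means and ratios were not used. The descriptions of YL1 and YL2 name the file of TL, and these libraries were taken as YL by title, source and column name.

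The comparisons used limma 3.58.1 (R 4.3.3) on log2(FPKM + 1) of all 8 libraries, a model with a term per group and moderated variances with a mean trend, for the 11913 genes that reached 1 FPKM in 2 or more libraries. A fold change on this scale understates the change of low genes. P-values were adjusted over all genes tested (Benjamini-Hochberg), and a call needed an adjusted p under 0.01 and a log2 difference over 1. With 2 libraries a group, the smallest 2-sided p of an exact permutation test is 0.333, so none was run. The fit was tested on simulated data. Nothing in the sources says that a replicate number pairs libraries, and the p-values measure only the spread between pools. Intervals come from the fit, and reads per gene carry counting error beside it. No gene model of the table overlaps a member.

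Members were named in full. Partner lists were given by counts and by genes among the 3 with the smallest p per list and comparison whose groups did not overlap, marker lists (cardiomyocyte, atrial, ventricular, vascular smooth muscle, skeletal muscle, fibroblast, endothelial, leukocyte, red blood cell and kidney tubule) by sums and by genes of the 3 highest levels, and similar genes by the 3 highest correlations. ACTN2, given beside the members as their partner, was chosen after its values were seen, as were the counts, medians and partner values without YL2 (leaving out each library was planned), the scaled reads in place of FPKM and the quotients. Members and lists were chosen with earlier results of these data known. Alternatives were the pseudocount, the filter, the scaling, the threshold, the libraries in the fit and a replicate block.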

Additional observations from a re-analysis of the deposited data

Results flagged for a closer look

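For PDLIM5 and LDB3 every library of the Tibetan pigs moved one way between altitudes and every library of the Yorkshire pigs the other way. PDLIM5 was at 81.7 and 87.3 FPKM in TH, below 110 and 118 FPKM in TL, and at 129 and 166 FPKM in YH, above 91.6 and 45.7 FPKM in YL. The altitude difference in Tibetan minus that in Yorkshire pigs was -1.59 on the log2 scale (limma adjusted p = 0.36). It was strongest, at -2.08, without YL1, where YL2 is the lone YL library. LDB3 was at 156 and 150 FPKM in TH, below 275 and 317 FPKM in TL, and at 335 and 359 FPKM in YH, above 325 and 127 FPKM in YL. The same quantity was -1.71 for LDB3 (adjusted p = 0.395), and -2.39 without YL1. YL1, at 325 FPKM, was close to YH1, at 335 FPKM, so the Yorkshire side for LDB3 rests on YL2, and without YL2 the values were -1.10 for PDLIM5 and -1.03 for LDB3. Over ACTN2 of the same library, LDB3 was 0.444 and 0.423 in YH and 0.427 and 0.372 in YL, which overlap, whereas PDLIM5 was 0.171 and 0.196 in YH and 0.12 and 0.135 in YL, and 0.111 and 0.125 in TH and 0.180 and 0.132 in TL, without overlap.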

How the results depend on the processing

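No setting that kept all libraries called a member in any comparison or in the interaction, and of 238 values of the 7 genes under alternatives other than leaving out a library, 7 changed sign and the rest kept their direction. At an FPKM sum of 1000000 these were FLNC in TH against YH (-0.78), PDLIM4 in TH against YH (-0.08), PDLIM1 in TH against TL (-0.43) and the interaction of PDLIM4 (-0.14), and on scaled reads FLNC in TH against YH (-0.02) and the interactions of PDLIM3 (0.07) and PDLIM4 (-0.20). The first of these scalings puts the median of all genes at -0.50 in TH against YH, -0.27 in TH against TL and -0.26 in the interaction, so PDLIM4 stays above that median in both of its values and FLNC and PDLIM1 lie below it. On scaled reads the cause was not tested. Over all genes, 4, 1, 6 and 0 were called in TH against YH, TL against YL, TH against TL and YH against YL, and 4 in the interaction. At equal FPKM sums these were 38, 97, 30, 69 and 40, and on scaled reads 0 in each. An adjusted p under 0.05 gave 31 in TH against YH and 12 in TH against TL. Only the 4 libraries compared gave 2 in TL against YL and 11 in TH against TL, and a pseudocount of 0.1 gave 1 in YH against YL. The numbers of the replicates did not pair the libraries (correlations of deviations -0.08 to 0.12), and with the replicate block 3, 1, 4, 0 and 4 genes and no member were called. The count tests edgeR and DESeq2 planned in case whole reads could be recovered were not run. The steps behind the reads given here leave a few low values that are not whole, and the scaled reads were not taken as recovered counts.

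With each library left out in turn, the genes called ranged from 3 to 6, 1 to 305, 4 to 13, 0 to 305 and 4 to 152 in the same order, the highest without YL1, and the members called from 0 to 1 in TL against YL and in YH against YL. In TH against YH the range was -0.55 to 0.95 for FLNC and -0.54 to 0.07 for PDLIM1. In TL against YL it was -2.63 to 0.29 for PDLIM2, -0.39 to 1.64 for PDLIM4, -0.14 to 1.22 for LDB3, -0.16 to 1.38 for FLNC and -0.57 to 1.33 for PDLIM1. In TH against TL it was -0.11 to 0.51 for PDLIM1. In YH against YL it was -2.18 to 0.75 for PDLIM2, -1.54 to 0.48 for PDLIM4 and -0.13 to 1.77 for PDLIM1. In the interaction it was -0.85 to 2.08 for PDLIM2, -0.76 to 0.68 for PDLIM3, -0.95 to 1.08 for PDLIM4, -1.18 to 0.36 for FLNC and -1.56 to 0.33 for PDLIM1. A lone library was assumed to vary like the other groups. At 9 to 51 reads outside YL2, PDLIM2 is limited by depth.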
